A study of Mus musculus with 15 samples.

Results

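Bone morphogenetic proteins (BMPs) are secreted ligands of the TGFß superfamily, and 9 genes of their signalling pathway were followed here in Mouse Embryonic Fibroblasts (MEFs). The set held the ligands *Bmp2*, *Bmp4* and *Bmp6*, the receptors *Bmpr1a*, *Bmpr1b* and *Bmpr2*, the secreted antagonists *Grem1* and *Nog*, and the pseudoreceptor *Bambi*. Its members were all non-control probes whose RefSeq identifier is a transcript of 1 of these genes, which gave 11 probes of the 56605 on the array. The cells were the Balb/c 3T3 clone A31, an established MEF line that descends from 1 clone. The controls (untreated), MEFs treated by TNFα (10 ng/ml) and MEFs treated by TGFß1 (5 ng/ml) addressed a proinflammatory and a profibrotic polarization. The other arrays held MEFs treated by IL-1ß (1 ng/ml) or by IL-6 (20 ng/ml) together with its soluble receptor sIL-6Rα (25 ng/ml). Each of the 5 groups held 3 arrays. Culture lasted 24 h for the control, TNFα and TGFß1 arrays, and for the IL-1ß and IL-6 arrays the labels allow 24 or 72 h. Arrays go by their condition and label number.

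BMP dimers bind a complex of type I receptors, such as *Bmpr1a* (ALK3) and *Bmpr1b* (ALK6), and a type II receptor such as *Bmpr2*. The activated receptors phosphorylate the receptor-regulated SMADs, which enter the nucleus with their common partner and induce targets such as the *Id* genes. Antagonists such as gremlin 1 (*Grem1*) and noggin (*Nog*) bind the ligands outside the cell, *Bambi* resembles a type I receptor without a kinase, and in fibroblasts BMP signals are often described as opposing those of TGFß.

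Levels are given as the log2 processed signal of a probe minus the 75th percentile of its array, so that 0 is the level of the 75th percentile and 1 unit is a change by a factor of 2. Fluorescence depends on the probe as well as on the RNA, so a level is compared between groups only and never between genes. To be tested, a probe had to stand well above background on all arrays of 1 or more groups. Calls needed a q-value below 0.05 and a fold-change of 1.5 or more in either direction. In bulk RNA, fewer cells that express a gene and less RNA per cell cannot be told apart.

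The 15 arrays showed 48.3% to 54.9% of probes well above background and no saturated spots. They lay on 2 slides that both held all 5 groups. All 8 fibroblast markers, among them *Col1a1*, *Pdgfra* and *Thy1*, were well above background on every array. Their summed level relative to the 75th percentile was 1700 to 2100 in the controls and 1090 to 1420 in the TNFα arrays, without overlap, and the part of this shift in the TNFα results was not tested. In the other groups it ranged from 1450 (TGFß1) to 2090 (IL-6). Of the 5 macrophage and leukocyte markers, *Ptprc* and *Adgre1* were above background on 0 of 15 arrays, while *Cd68*, *Csf1r* and *Itgam* were on all 15, and the summed level of this list lay between 10.2 and 24.2 in all groups. Of the 4 endothelial markers, *Cdh5*, *Kdr* and *Tek* were above background on 0 of 15 arrays and *Pecam1* on all 15, and their summed level lay between 0.101 and 0.149. Of the 4 epithelial markers, *Cdh1* and *Krt5* were on 0 of 15 arrays, *Krt14* on 3 and *Epcam* on 1, with a summed level between 0.0433 and 0.141.

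With TGFß1, the receptors *Bmpr1b* and *Bmpr2* rose and the antagonist *Grem1* fell. With TNFα, *Bmpr1b* rose less and *Grem1* rose. No member was called with IL-1ß or IL-6, and the ligands *Bmp2*, *Bmp4* and *Bmp6* were not measurable in any group. Of the 9 genes, 6 passed the filter and were tested, and *Bmpr1b* passed it through its TNFα and TGFß1 arrays only, *Bambi* through its TGFß1 arrays only. With TNFα, 2 of these 6 genes were called, where 9.40% of all 28806 tested probes were called. With TGFß1, 3 of 6 genes were called, where 17.2% of all tested probes were. The median log2 fold-change of the 6 genes was 0.21 with TNFα and 0.41 with TGFß1. Over all tested probes it was 0.04 and 0.08. As *Bmpr1b* and *Bambi* entered through treated arrays, these shares and medians can lean upwards and are a description only. Both comparisons share the same 3 control arrays.

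**Figure D1:**
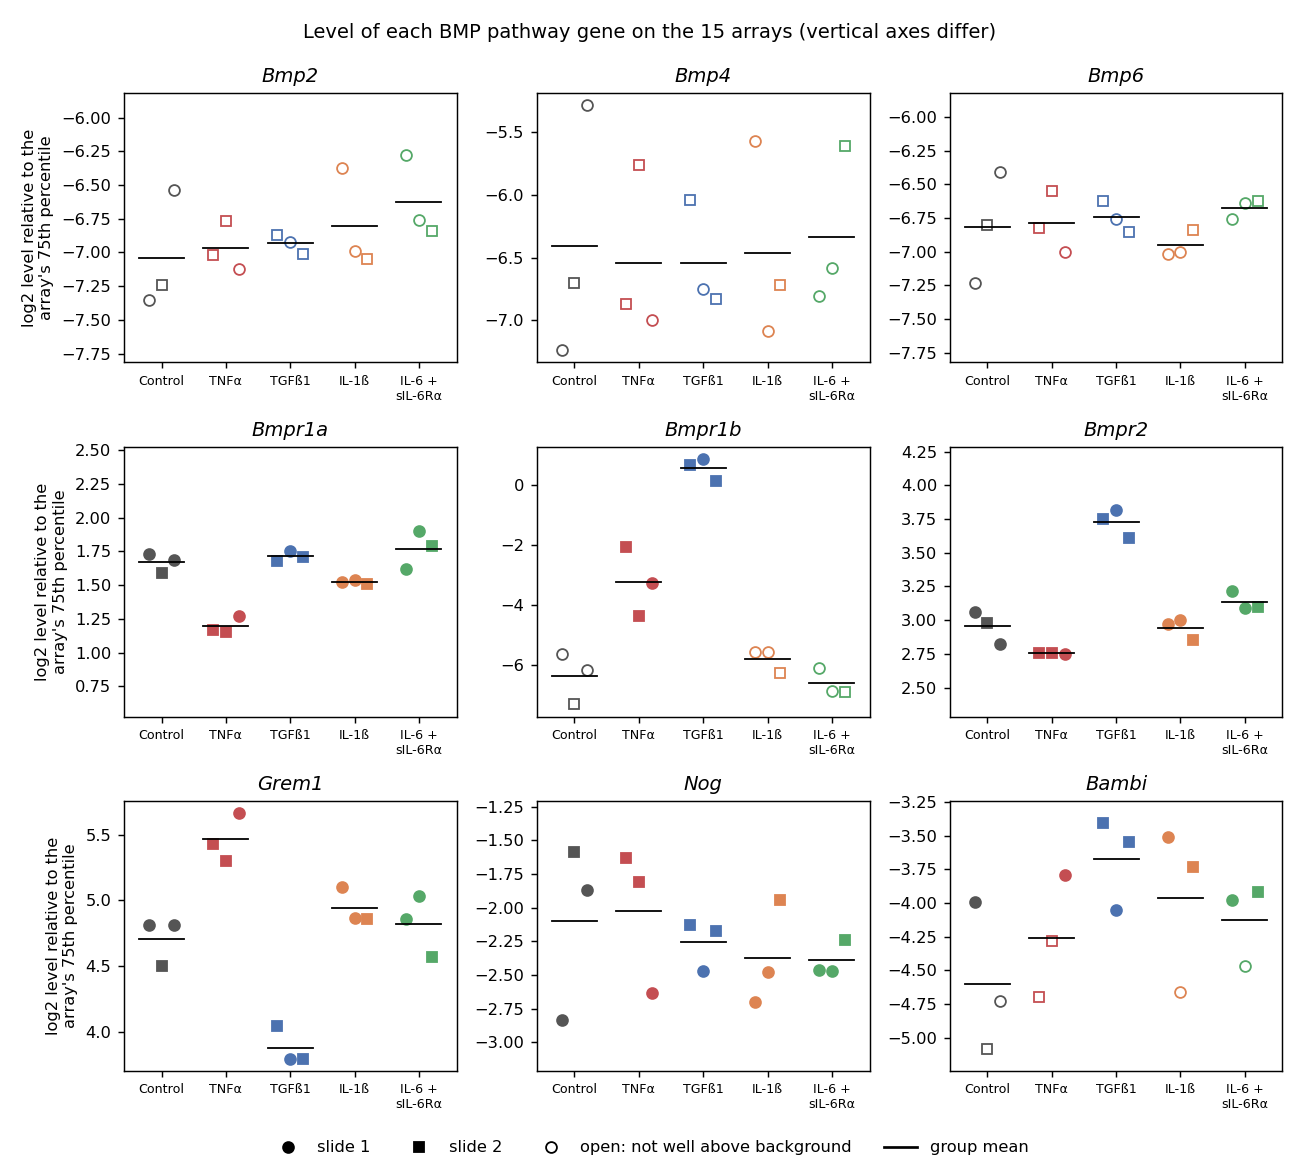
Level of each of the 9 genes on the 15 arrays, by group, as log2 signal relative to the 75th percentile of the array (vertical axis, which differs between panels). Each point is 1 array, circles are slide 1 and squares slide 2, open symbols are not well above background, and lines are group means. *Bmpr1b* stands between 0.13 and 0.87 in the TGFß1 arrays and at -5.55 or lower on every control, IL-1ß and IL-6 array, and all points of *Bmp2*, *Bmp4* and *Bmp6* are open.

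*Bmp2* and *Bmp4* are closely related BMPs with roles in bone and embryonic patterning, and *Bmp6* is known as a regulator of hepcidin in the liver. The *Bmp2* probe (NM_007553) was well above background on 0 of 15 arrays, with levels from -7.35 (control 1) to -6.28 (IL-6 3). For *Bmp4* (NM_007554) both probes were also on 0 of 15 arrays, and the brighter of them ranged from -7.24 (control 1) to -5.28 (control 11). For *Bmp6* (NM_007556) the levels lay between -7.23 (control 1) and -6.41 (control 11), again with 0 of 15 arrays well above background. The lowest and highest of these levels of *Bmp4* and *Bmp6* thus fell on control arrays, while the dimmer *Bmp4* probe was highest on IL-6 13 (-5.08). These 3 genes were not tested, and at this signal neither a presence nor a change of their RNA was detectable.

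*Bmpr1b* (NM_007560) encodes a type I receptor with a kinase domain, known from cartilage formation and from ovarian follicles. Its TGFß1 arrays had levels of 0.69, 0.87 and 0.13 (arrays 2, 7 and 12). The TNFα arrays had levels of -2.04, -4.36 and -3.26 (arrays 4, 9 and 14). The controls had levels of -5.61, -7.30 and -6.17 (arrays 1, 6 and 11). Every TGFß1 array lay above every TNFα array, and every TNFα array above every control, while 0 of 3 controls were well above background. The IL-1ß arrays had levels of -5.57, -5.55 and -6.25 (arrays 5, 10 and 15) and the IL-6 arrays -6.08, -6.85 and -6.89 (arrays 3, 8 and 13). None of these 6 arrays was well above background either, and their ranges overlapped with that of the controls.

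Because the controls gave only a bound for *Bmpr1b*, its fold-changes are given as minima, taken from the mean of the detected group against the mean over the undetected arrays of the higher of the probe's level and the array's dimmest level well above background. On this basis, *Bmpr1b* was at least 41.7-fold higher with TGFß1 than in the controls. Such minima bound the undetected levels only, within this processing. They include neither the spread between arrays nor another background correction. The fitted log2 fold-change, which rests on the undetected values, was 6.93 (SE 0.60, q-value 0.000272). With TNFα it was at least 3.03-fold higher, with a fitted log2 fold-change of 3.14 (SE 0.60, q-value 0.0136). Without TNFα 4, the brightest of the TNFα arrays, the bound was 2.01-fold and the fitted value 2.55, and with any other single array left out the bound was 2.74-fold to 4.49-fold. The TNFα call was lost with a normexp background correction, where the log2 fold-change was 0.78 and the q-value 0.119. The TGFß1 value also fell, to 3.38, with this correction, and its call held. Within slide 1 the log2 difference from the controls was 6.76 for TGFß1 and 2.63 for TNFα, and within slide 2 it was 7.71 and 4.10. With the slide as a block, the log2 fold-change for TNFα was 3.34 (q-value 0.0105).

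The 2 receptor genes that rose and the antagonist that changed with both cytokines had entries in the RefSeq promoter table (GRCm38.p6), and the stretches from 250 bases before to 50 bases after a start are shown so that letters known from SMAD and NF-kB sites can be seen beside the values. Windows of 6 of the 9 members were read, not those of *Bmp2*, *Nog* and *Bambi*. *Bmpr1b* had 3 starts, all on the minus strand. The 5′-most start lies in chr3:141982215-141982514 and the next in chr3:141931539-141931838. Capitals mark the SMAD letters CAGAC and the NF-kB letters GGGNNTTTCC, searched on both strands, so that a minus-strand match reads as GTCTG or as the reverse complement.
Bmpr1b, 5′-most start: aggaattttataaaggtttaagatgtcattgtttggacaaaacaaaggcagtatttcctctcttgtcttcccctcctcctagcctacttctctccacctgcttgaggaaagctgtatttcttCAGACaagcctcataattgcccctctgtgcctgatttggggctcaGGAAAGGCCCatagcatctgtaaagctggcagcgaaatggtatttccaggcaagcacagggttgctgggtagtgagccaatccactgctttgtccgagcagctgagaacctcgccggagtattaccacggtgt
Bmpr1b, next start: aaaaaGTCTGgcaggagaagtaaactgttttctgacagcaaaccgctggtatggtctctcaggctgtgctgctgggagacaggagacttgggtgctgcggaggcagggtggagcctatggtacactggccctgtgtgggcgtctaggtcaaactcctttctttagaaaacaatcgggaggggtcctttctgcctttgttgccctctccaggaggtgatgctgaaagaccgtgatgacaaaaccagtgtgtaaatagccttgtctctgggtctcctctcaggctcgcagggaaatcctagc
The first window held 1 CAGAC and 1 match to GGGNNTTTCC, and the second held 1 CAGAC. Over all 32851 promoters of the table, 49.6% held CAGAC and 1.63% held GGGNNTTTCC. The start with the third window (chr3:141931371-141931670), which overlaps the second, held neither. None of the 3 windows held the AP-1 letters TGACTCA, found in 5.2% of all promoters. A match of letters is a description of the sequence, and no binding was measured here.

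*Bmpr2* (NM_007561) encodes the type II receptor of BMPs, known for its mutations in pulmonary arterial hypertension. Its levels with TGFß1 were 3.75, 3.82 and 3.61 (arrays 2, 7 and 12). In the controls they were 3.06, 2.98 and 2.82 (arrays 1, 6 and 11). With TNFα they were 2.76, 2.76 and 2.75 (arrays 4, 9 and 14). The TGFß1 arrays lay above all other arrays, and the TNFα arrays lay just below the controls without overlap. With TGFß1, *Bmpr2* rose by a log2 fold-change of 0.78 (SE 0.12, q-value 0.00267), or 1.71-fold. The difference was 0.88 within slide 1 and 0.71 within slide 2, and 0.79 with the slide as a block (q-value 0.00176). With TNFα the log2 fold-change was -0.19 (95% confidence interval -0.46 to 0.07, q-value 0.349), which did not pass the test.
The promoter window of *Bmpr2*, on the plus strand at chr1:59764029-59764328, is shown with the GC-rich SMAD letters GGCGCC, found in 11.9% of all promoters, in capitals.
Bmpr2: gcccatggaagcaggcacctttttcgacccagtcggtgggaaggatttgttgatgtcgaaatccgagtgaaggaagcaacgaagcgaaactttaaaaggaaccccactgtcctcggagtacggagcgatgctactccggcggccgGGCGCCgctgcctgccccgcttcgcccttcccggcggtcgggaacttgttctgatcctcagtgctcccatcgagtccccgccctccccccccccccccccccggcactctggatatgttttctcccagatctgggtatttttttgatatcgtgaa
It held 1 GGCGCC and no CAGAC, GGGNNTTTCC or TGACTCA. The *Bmpr1b* windows held no GGCGCC. Among members that were not called, the window of *Bmpr1a* held 1 GGCGCC, that of *Bmp6* 1 CAGAC and that of *Bmp4* neither.

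*Bmpr1a* (NM_009758) encodes the broadly expressed type I receptor. On its brighter probe, levels were 1.73, 1.59 and 1.69 in the controls and 1.17, 1.15 and 1.27 with TNFα. With TGFß1 they were 1.68, 1.75 and 1.71. The TNFα arrays were the lowest of all 15, and the TGFß1 arrays overlapped with the controls. With TNFα the log2 fold-change was -0.48 (SE 0.10, q-value 0.0233), or 1.39-fold, which passed the q-value but not the fold-change threshold. The difference was -0.45 within slide 1 and -0.43 within slide 2. The dimmer probe of the gene, also well above background on all arrays, gave -0.08 (SE 0.17, q-value 0.817), so the probes disagreed. With TGFß1 the log2 fold-change was 0.04 (95% confidence interval -0.20 to 0.28).

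**Figure D2:**
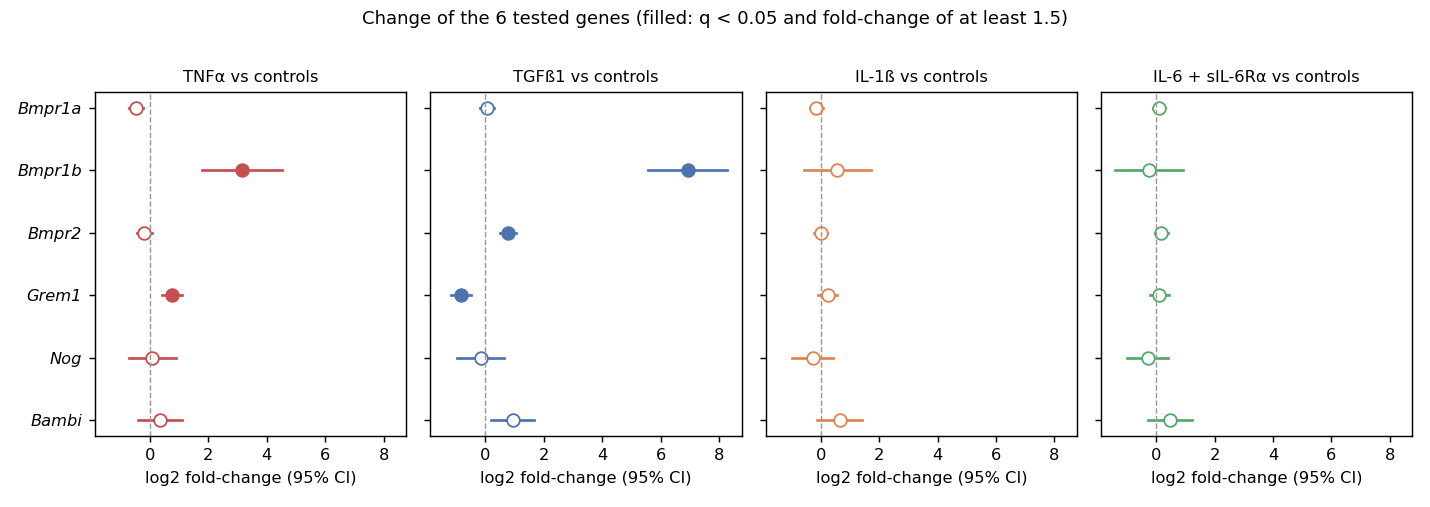
Log2 fold-change against controls (horizontal axis) of the 6 tested genes (vertical axis) for each cytokine, with 95% confidence intervals from the fit. Filled points were called. *Bmpr1b* is at 3.14 with TNFα and 6.93 with TGFß1, *Grem1* at 0.76 and -0.82, *Bmpr2* at 0.78 with TGFß1, and all IL-1ß and IL-6 points are open.

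*Grem1* (NM_011824) encodes gremlin 1, a secreted protein that binds BMP2, BMP4 and BMP7. Its levels with TNFα were 5.43, 5.30 and 5.66 (arrays 4, 9 and 14). In the controls they were 4.81, 4.50 and 4.81 (arrays 1, 6 and 11). With TGFß1 they were 4.05, 3.80 and 3.80 (arrays 2, 7 and 12). Both treated groups stood clear of the controls, on opposite sides. With TNFα, *Grem1* rose by a log2 fold-change of 0.76 (SE 0.15, q-value 0.0164), or 1.69-fold. With TGFß1 it fell, with a log2 fold-change of -0.82 (SE 0.15, q-value 0.00671), or 1.77-fold. Both directions were seen within each slide, with differences of 0.85 and 0.86 for TNFα and of -1.01 and -0.57 for TGFß1 on slides 1 and 2. With the slide as a block, the TNFα value was 0.81 (q-value 0.00725).
The TNFα call did not hold under each setting: it was lost without TNFα 4 (0.77, q-value 0.0609), without TNFα 14 (0.66, q-value 0.0546), without a filter on dim probes (0.76, q-value 0.0616) and with arrays centred on the median instead of the 75th percentile (0.66, q-value 0.204). The TGFß1 call was lost with the median only (-0.82, q-value 0.0696).
The promoter window of *Grem1*, on the minus strand at chr2:113758599-113758898, held 2 CAGAC and 1 GGCGCC, shown in capitals, and no GGGNNTTTCC or TGACTCA.
Grem1: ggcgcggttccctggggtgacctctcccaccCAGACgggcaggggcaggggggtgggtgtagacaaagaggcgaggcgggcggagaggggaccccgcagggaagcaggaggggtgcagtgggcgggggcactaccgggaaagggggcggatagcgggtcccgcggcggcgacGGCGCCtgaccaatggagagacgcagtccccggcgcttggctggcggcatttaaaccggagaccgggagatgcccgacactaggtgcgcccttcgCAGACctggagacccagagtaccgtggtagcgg

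*Nog* (NM_008711) encodes noggin, which binds BMPs and keeps them from their receptors. Its levels were -2.83, -1.59 and -1.87 in the controls (arrays 1, 6 and 11) and -1.63, -1.81 and -2.63 with TNFα (arrays 4, 9 and 14). With TGFß1 they were -2.13, -2.47 and -2.17 (arrays 2, 7 and 12). All groups overlapped, and in 5 of 5 groups the arrays of slide 2 lay above those of slide 1, which was seen for no other member. The log2 fold-change was 0.07 with TNFα (95% confidence interval -0.73 to 0.88) and -0.16 with TGFß1 (-0.97 to 0.64). Within slides 1 and 2 the differences were -0.28 and -0.13 for TNFα and -0.12 and -0.56 for TGFß1. With the slide as a block, the log2 fold-change was -0.15 with TNFα (q-value 0.712) and -0.38 with TGFß1 (q-value 0.262). No difference of *Nog* beyond the spread between arrays was detected, and changes within these intervals could not be told from 0.

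*Bambi* (NM_026505), a transmembrane inhibitor of BMP and TGFß receptors, was close to background. Levels were -3.99, -5.08 and -4.73 in the controls, of which 1 of 3 was well above background. With TGFß1 they were -3.41, -4.05 and -3.55, all 3 well above background. With TNFα they were -4.70, -4.28 and -3.79, with 1 of 3 well above background. TGFß1 7 lay below control 1, so the groups overlapped. The log2 fold-change with TGFß1 was 0.93 (SE 0.33, q-value 0.0774), which did not pass the test. It was 0.31 within slide 1 and 1.60 within slide 2. With the slide as a block it was 1.02 and passed (q-value 0.045), with the slide and the run (1 of 3 sets of 5 consecutive label numbers) as a block it was 1.01 and did not (q-value 0.0515), and without control 1 it was 1.24 and passed (q-value 0.029). With TNFα the log2 fold-change was 0.35 (95% confidence interval -0.40 to 1.09).

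With IL-1ß, 0 of the 6 tested members were called, where 0.232% of the 29334 probes tested with all 15 arrays were. With IL-6 and its soluble receptor, 0 of 6 were called, where 0.0580% of all tested probes were. In both comparisons no member had an unadjusted p below 0.05 in the limma fit without blocks, while 1060 and 934 of all tested probes did. The median log2 fold-change of the tested members was 0.11 in both, against 0.00 over all tested probes. For *Grem1*, levels with IL-1ß were 5.10, 4.87 and 4.86, all just above the controls, and the log2 fold-change was 0.24 (95% confidence interval -0.09 to 0.57). For *Bmpr2*, levels with IL-6 were 3.22, 3.09 and 3.10, also just above the controls, and the log2 fold-change was 0.18 (-0.03 to 0.40). The interval was wider for *Bambi*, from -0.13 to 1.40 with IL-1ß. For *Bmpr1b*, the interval was -0.59 to 1.73 with IL-1ß and -1.41 to 0.92 with IL-6, between groups that were all below detection. For *Bmpr1a*, the IL-1ß levels of 1.52, 1.54 and 1.51 lay just below the controls (log2 fold-change -0.15, interval -0.36 to 0.06). With slide and run as a block, 1.10% (IL-1ß) and 0.787% (IL-6) of all tested probes were called, and again no member. In that block *Bmpr2* with IL-6 was at 0.18 (SE 0.06, q-value 0.254).

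Compared directly, TNFα and TGFß1 separated the same 3 genes that TGFß1 moved against the controls. Of the 6 tested members 3 were called, where 11.2% of all tested probes were. *Grem1* was higher with TNFα than with TGFß1 by a log2 fold-change of 1.58 (SE 0.15, q-value 0.000326). *Bmpr1b* was lower, with -3.79 (SE 0.60, q-value 0.00399) and *Bmpr2* was lower, with -0.97 (SE 0.12, q-value 0.000998). *Bmpr1a* was lower with TNFα on its brighter probe (-0.52, q-value 0.0132), under the fold-change threshold, and its dimmer probe gave 0.02. On the probe given first, none of these 4 genes had overlapping TNFα and TGFß1 arrays. They were named for their q-values in this comparison, so this is no separate evidence. The share of all probes without overlap was not counted.

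Against the TGFß1 arrays, IL-1ß and IL-6 gave the same 3 genes, with 3 of 6 members called in each, where 16.9% and 16.3% of all tested probes were. *Bmpr1b* was at least 44.7-fold higher with TGFß1 than with IL-1ß and at least 36.0-fold higher than with IL-6. *Bmpr2* had a log2 fold-change of -0.79 for IL-1ß against TGFß1 (q-value 0.000190) and of -0.59 for IL-6 against TGFß1 (q-value 0.00131). The latter was 1.51-fold, just past the threshold, and fell below it without 1 of 4 arrays (-0.58 to -0.55, TGFß1 2 or 7 or IL-6 8 or 13 left out), with normexp (-0.54) and with quantile normalization (-0.48). *Grem1* was higher than with TGFß1 by 1.06 with IL-1ß (q-value 0.000447) and by 0.93 with IL-6 (q-value 0.000995). All of these comparisons share the same 3 TGFß1 arrays.

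Between the proinflammatory cytokines IL-1ß and TNFα, 1 of 6 tested members was called, where 4.69% of all tested probes were. *Bmpr1b* was at least 3.24-fold higher with TNFα than with IL-1ß, with a fitted log2 fold-change of -2.57 for IL-1ß against TNFα (SE 0.54, q-value 0.0152). The call was lost with normexp (-0.70, q-value 0.113), with these 2 groups fitted alone (-2.57, q-value 0.0751), without TNFα 4 (-1.98, q-value 0.0594) and without IL-1ß 15 (-2.34, q-value 0.0563). Without TNFα 4 the bound was 2.15-fold. *Grem1* had a log2 fold-change of -0.52 for IL-1ß against TNFα (q-value 0.0711), without overlap between the groups, and passed the test with slide and run as a block (-0.59, q-value 0.00453).

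The groups can be put in order for each gene. For *Bmpr1b*, the order was TGFß1 (mean 0.56 ± 0.38, SD, n = 3), TNFα (-3.22 ± 1.16), IL-1ß (-5.79 ± 0.40), controls (-6.36 ± 0.86) and IL-6 (-6.61 ± 0.46), and the last 3 overlapped. No array of these last 3 groups was well above background, so they cannot be ranked among themselves. For *Grem1*, the order was TNFα (5.46 ± 0.18), IL-1ß (4.94 ± 0.14), IL-6 (4.82 ± 0.23), controls (4.71 ± 0.18) and TGFß1 (3.88 ± 0.15). There IL-1ß overlapped with IL-6, and IL-6 with the controls. For *Bmpr2*, it was TGFß1 (3.73 ± 0.10), IL-6 (3.14 ± 0.07), controls (2.95 ± 0.12), IL-1ß (2.94 ± 0.08) and TNFα (2.76 ± 0.01), where only the controls and IL-1ß overlapped among neighbours. For *Nog* and *Bambi*, all neighbours in the order overlapped.

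Among the 13486 other named genes compared over the 15 arrays, the pattern most like that of *Bmpr1b* was shown by *Ldlrad4* (Pearson's r 0.975) and *Rhob* (0.974). For *Grem1* it was shown by *Tnfaip2* (0.980) and *Iqgap3* (0.979), and for *Bmpr2* by *Itga7* (0.961) and *Cd1d1* (0.955). *Ldlrad4* had mean levels of 0.34 in the controls, 0.84 with TNFα and 1.33 with TGFß1, and *Rhob* of 0.99, 2.47 and 3.63. *Tnfaip2* had mean levels of 3.55, 5.02 and 2.09 in the same order. *Itga7* had mean levels of 0.20, -0.47 and 2.03. The points share their arrays and groups, so r is a description of likeness over these 5 groups. For *Bmpr1b* it rests partly on undetected values, as no control, IL-1ß or IL-6 array was well above background.

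Beyond the 9 genes, 54 further genes of the pathway were looked at in 6 lists, of which 38 were tested. The lists were chosen with earlier results of these data known, and each gene counts by its brightest probe. *Bmp5* and *Tll1* passed the filter through their TGFß1 arrays only, and *Gdf5* through its control arrays only. The shares are therefore a description beside those of all probes, not a test of the pathway. With TGFß1, 8 rose and 12 fell, 52.6% of those tested (17.2% over all probes). With TNFα, 1 rose and 3 fell, which is 10.5% (9.40% over all probes). With IL-1ß and IL-6 none was called (0.232% and 0.0580% over all probes). The median log2 fold-change of the 38 genes was 0.14 with TGFß1 and -0.17 with TNFα (0.08 and 0.04 over all tested probes). With slide and run as a block, the TNFα count was 14 (5 higher, 9 lower), all 4 of the first calls included, and 15.5% of all tested probes were called. With TGFß1 in this block, 9 were higher and 14 lower, the 20 first calls included, and 23.5% of all tested probes were called. IL-1ß and IL-6 had 1 call each in it (*Bmper* and *Fst*, both higher), where 1.10% and 0.787% of all tested probes were called.

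**Figure D3:**
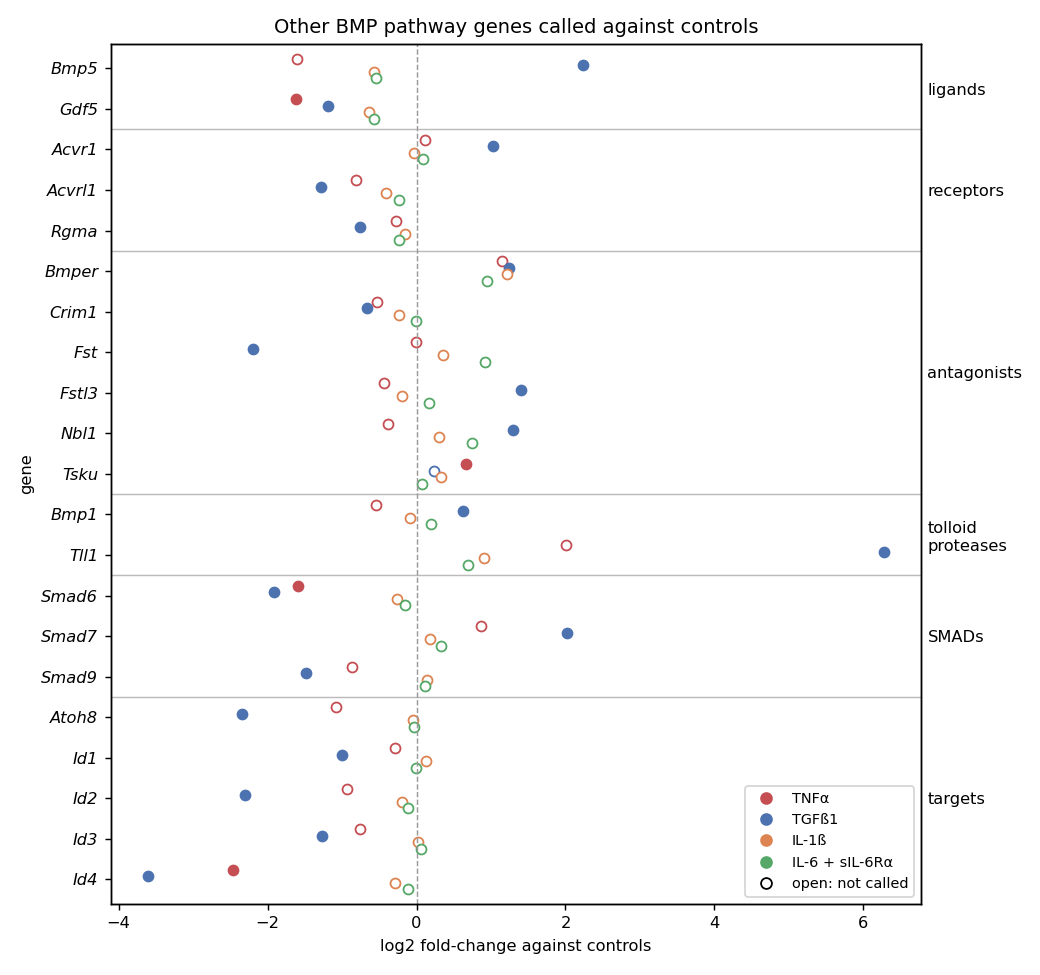
Log2 fold-change against controls (horizontal axis) of the other BMP pathway genes that were called with at least 1 cytokine (vertical axis, grouped by role). Colours are the cytokines, and open points were not called. *Id1*, *Id2*, *Id3*, *Id4* and *Atoh8* lie left of 0 with TGFß1, *Tll1* is farthest right at 6.28, and the IL-1ß and IL-6 points are all open.

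Of the 10 other ligands, 3 were tested. With TGFß1, 2 of these were called, which is 66.7% (17.2% over all probes). With TNFα 1 was, which is 33.3% (9.40% over all probes). *Bmp5* passed the filter through its TGFß1 arrays only, and its control mean rests mostly on undetected values, with 1 of 3 controls well above background. It rose with TGFß1 by a fitted log2 fold-change of 2.24 (q-value 0.0492) with overlapping arrays, and with the slide as a block the call was lost (2.20, q-value 0.0532). *Gdf5*, a ligand known from joint formation, fell with TGFß1 and with TNFα, at least 1.64-fold (q-value 0.0417) and at least 1.66-fold (q-value 0.0216), from a level detected in 3 of 3 controls to 0 of 3 treated arrays. It passed the filter through the controls only, so its fold-changes can lean downwards and are a description only. Of the 8 other receptors and co-receptors, 7 were tested. With TGFß1 the type I receptor *Acvr1* (ALK2) rose by 1.03 on the log2 scale (q-value 0.000594). The endothelial type I receptor *Acvrl1* (ALK1) fell by 1.28 (q-value 0.0171) and the co-receptor *Rgma* fell by 0.76 (q-value 0.00716). With TNFα, none of the 7 was called (9.40% over all probes). With TGFß1, 3 of 7 were, which is 42.9% (17.2% over all probes). With slide and run as a block, *Acvrl1* was called with TNFα (-0.94, q-value 0.0111), as was the co-receptor *Rgmb* (0.60, q-value 0.0130), and the type II receptor *Acvr2b* was called with TGFß1 (0.70, q-value 0.00649). *Bmp5* was called with TNFα in this block as well (-1.52, q-value 0.0445).

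Of the 14 other antagonists and extracellular modulators, 8 were tested. With TGFß1, 3 of them rose and 2 fell, which is 62.5% (17.2% over all probes). With TNFα 1 rose, which is 12.5% (9.40% over all probes). *Fst* (follistatin), which binds activins and some BMPs, fell by 2.20 with TGFß1 (q-value 0.000599) and was at -0.01 with TNFα. *Fstl3*, a follistatin relative, rose with TGFß1 by 1.40 (q-value 0.0124), and the antagonist *Nbl1* rose by 1.29 (q-value 0.00368). The modulator *Bmper* rose with TGFß1 by 1.24 (q-value 0.0301). Its log2 fold-change was 1.15 with TNFα (q-value 0.0609), 1.22 with IL-1ß (q-value 0.609) and 0.94 with IL-6 (q-value 1), which did not pass the test. The TNFα value passed with the slide as a block (1.23, q-value 0.0432) and with slide and run as a block (1.29, q-value 0.0204), and the IL-1ß value in the latter (1.22, q-value 0.0307). The remaining calls were *Crim1* (lower) with TGFß1 and *Tsku* (higher) with TNFα. Of the tolloid proteases, which cleave the BMP antagonist chordin, 2 of 3 were tested and both were called with TGFß1 (17.2% over all probes). *Tll1* rose by a fitted 6.28 (SE 0.90, q-value 0.00222) and *Bmp1* by 0.62 (q-value 0.045). *Tll1* passed the filter through its TGFß1 arrays only and was well above background on 2 of 3 arrays of every other group, so its control mean of -5.11, and with it the 6.28, rests partly on an undetected value. With slide and run as a block, *Tll1* was also called with TNFα (2.39, q-value 0.0125).

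All 8 intracellular transducers were tested. With TGFß1, 37.5% of them were called (17.2% over all probes), and with TNFα 12.5% (9.40% over all probes). With TGFß1, the inhibitory *Smad7* rose by 2.02 on the log2 scale (q-value 0.00838). The inhibitory *Smad6*, itself a known BMP target, fell by 1.92 (q-value 0.00186), and the BMP-responsive *Smad9* fell by 1.48 (q-value 0.00977). *Smad6* also fell with TNFα, by 1.59 (q-value 0.00772). Of the 11 target genes, 10 were tested, and with TGFß1 none of them rose and 5 fell, with a median log2 fold-change of -1.14 over the 10. *Id4* fell by 3.61 (q-value 5.02e-05), *Atoh8* fell by 2.34 (q-value 0.00229), *Id2* fell by 2.31 (q-value 0.00117) and *Id3* fell by 1.27 (q-value 0.0188), and *Id1* was the fifth. The *Id* genes encode inhibitors of basic helix-loop-helix transcription factors. With TNFα, only *Id4* was called among the targets, with a log2 fold-change of -2.46 (q-value 0.000101). This is 10.0% of the tested targets, close to the 9.40% over all probes. The median over the 10 was -0.42 (0.04 over all tested probes). With slide and run as a block, TNFα calls were added for *Id2* (-1.0, q-value 0.00648), *Id3* (-0.63, q-value 0.00509), *Atoh8* (-0.99, q-value 0.00292) and *Alpl* (1.27, q-value 0.0435) among the targets and for *Smad9* (-0.88, q-value 0.00662). With TGFß1 the same block added *Hey1* (-1.99, q-value 0.00364) and *Msx1* (-0.89, q-value 0.00820). *Id* genes and SMADs receive several signals, so their levels are no direct measure of BMP activity.

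**Figure D4:**
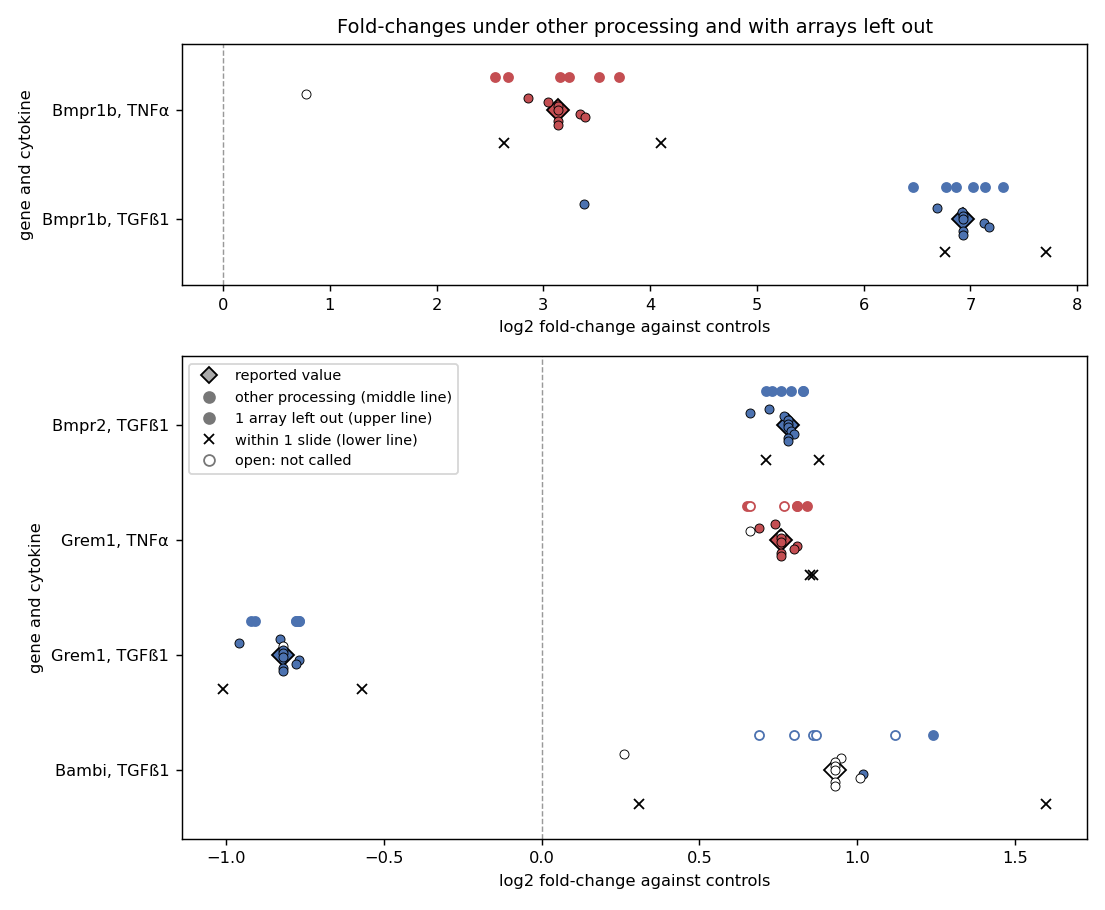
Log2 fold-change against controls (horizontal axis) of the genes and cytokines on the vertical axis, as reported (diamond), with other processing (middle line), with 1 array left out (upper line) and within 1 slide (crosses). Open symbols were not called. All points lie on the same side of 0 as the reported value, the normexp correction moves *Bmpr1b* to 0.78 with TNFα, and *Bambi* is called in 2 of the settings shown.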

How the data were processed

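Total RNA was hybridized by the authors to 15 one-colour Agilent 60-mer arrays and extracted with Feature Extraction 10.7.3.1. The deposited intensity values are processed signals after the software's background subtraction, without normalization between arrays, and the table of the series holds the same intensities (largest difference 0). No array duplicated another. Here, the log2 intensity was averaged over a probe's spots without flagged outliers, then each array's 75th percentile was taken off. Background status followed the software's mark on at least 0.5 of a probe's spots. Probes were named through RefSeq identifiers (GRCm38.p6), and a gene was represented by its probe with the highest mean signal. limma 3.58.1 in R 4.3.3 gave moderated tests with Benjamini-Hochberg q-values over all tested probes, on the 9 control, TNFα and TGFß1 arrays for comparisons among these, and on all 15 otherwise. The fit was tried on simulated data with independent noise on each array. That simulation cannot show how the fit behaves where arrays of the same run are correlated. The study describes independent experiments as replicates.

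The members, lists and tests were chosen with earlier results of these data known, and 1 gene of the lists is not reported here. Named were the 9 members, up to 4 called genes a list with values, and the 2 genes most like each called member. Alternatives were normexp (offset 50, on median spot and background intensities, as mean intensities were not used here), quantile or median scaling, the filter on dim probes, outlier spots, slide, run, arrays in the fit, moderation, single arrays left out and other probes. The labels number the arrays in 3 runs of 5 with 1 array of each group. With slide and group removed, the correlation of deviations was 0.114 to 0.671 for all 30 pairs of the same run, and over 0.1 for 2 of 60 pairs of different runs. The runs were therefore taken as pairing the arrays in the blocked fit. The number of arrays limits the precision. Promoter windows were read from RefSeq with Python.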

Additional observations from a re-analysis of the deposited data

How the results depend on the processing

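The called directions of *Bmpr1b*, *Bmpr2* and *Grem1* were kept under every alternative that gave a value; *Bmpr1b* and *Bambi* have none for probes well above background on every array. Member calls with TNFα fell from 2 to 1 with normexp, median scaling and no filter on dim probes, and were 1 to 2 with single arrays left out. For IL-1ß against TNFα the call was lost with normexp (0) and with the 2 groups fitted alone (0). The count became 2 with slide and run as replicate block, and was 0 to 1 with single arrays left out. With probes well above background on every array the counts were 1 (TNFα) and 0 (IL-1ß against TNFα), as *Bmpr1b* was not tested there. Pathway calls with TNFα (4) were 2 without the filter, 7 with the slide as a block and 14 with slide and run as replicate block (15.5% over all probes). In that block, 1 was called with IL-1ß (*Bmper*) and 1 with IL-6 (*Fst*), where 1.10% and 0.787% of all tested probes were. With slide and run as replicate block, the only member call that changed was *Grem1* for IL-1ß against TNFα. The causes were not tested. The normexp correction was run with the offset of 50 only. Median scaling lowered the calls over all probes from 2707 to 1764 with TNFα and from 4958 to 3116 with TGFß1. Without a filter, TNFα gave 1539 calls.

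Sign changes were found only for values that were not called. For *Nog* they were -0.03 (median), -0.01 (normexp), -0.15 (slide) and -0.16 (slide and run as replicate block) with TNFα, with -0.29 to 0.38 for single arrays left out. For TGFß1 single arrays left out gave -0.53 to 0.09. For *Nog* against TGFß1, both blocks gave 0.08 with IL-1ß and 0.06 with IL-6, and single arrays left out gave -0.33 to 0.05 with IL-1ß. *Bmpr1a* with TGFß1 was -0.03 with quantile normalization, -0.09 on its other probe and 0.00 to 0.07 with single arrays left out. Its other probe gave 0.04 for IL-1ß and 0.02 for TNFα against TGFß1, and leaving out single arrays gave -0.01 to 0.13 for IL-6 against TGFß1. *Bmpr1b* with IL-6 was 0.03 with normexp and -0.71 to 0.13 with single arrays left out. *Bmpr2* with IL-1ß was 0.00 with quantile normalization and -0.08 to 0.04 with single arrays left out. *Bambi* for IL-1ß against TGFß1 was -0.53 to 0.05. Probes below background, among them those of all 3 ligands, limit what these arrays can show.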
